A study of Mus musculus with 9 samples.

Results

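The 3 ES IP libraries were compared with the 3 JL IP libraries, 6 of the 9 libraries of the series, chosen by their labels alone. IP stands for RNA immunopurified with tagged ribosomes, while ES and JL stand for the investigators who extracted it, by their initials. Both groups came from untreated adult control mice that carry the transgene Abcb1a-EGFP/Rpl10a, line ES3026, and from the cerebral cortex, with endothelial cells as the labelled cell type. In this transgene the regulatory sequence of Abcb1a drives a ribosomal protein, Rpl10a, fused to a fluorescent protein, so every cell in which that sequence is active carries tagged ribosomes. The submitters name no difference between the groups other than who extracted the RNA. The other 3 libraries are JL inputs, total RNA of the homogenized tissue of the same line, and are given below as a reference level. No ES input was analysed here. Nothing in the labels ties each library to a mouse of its own, so p-values measure only the spread between these libraries.

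In translating ribosome affinity purification, antibodies against the fluorescent tag pull tagged ribosomes, with the mRNA they carry, out of a tissue homogenate, and RNA of other cells is left behind to the extent that the wash removes it. Endothelial cells line the brain's capillaries and form the blood-brain barrier: they are sealed by tight junctions, move glucose, amino acids and vitamins through dedicated transporters, and return many drugs to the blood through ATP-driven pumps such as the one encoded by Abcb1a. They are a small part of the cortex, whose RNA comes mainly from neurons and glia.

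The ES IPs held between 41518263 and 46199700 gene counts and the JL IPs between 31987470 and 37813545. By the names the files carry, all 3 ES IPs were sequenced in lane 6, and JL IP replicates 1, 2 and 3 in lanes 4, 2 and 3 together with the inputs of the same number. Lane, investigator and group therefore cannot be told apart. The ribosomal RNA precursor row Rn45s took 12.03%, 8.14% and 6.04% of gene counts in the ES IPs and 15.7% to 17.9% among the JL IPs. The Y-linked gene Ddx3y stood at 16.1, 23.7 and 20.4 CPM in the ES IPs and at 77.7, 0.0285 and 0 among the JL IPs, so Y-linked RNA was present in all 3 ES IPs and in 1 JL IP.

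Between the ES and JL IPs, 9381 of 16212 tested genes differed (57.9%, adjusted p under 0.05 in edgeR's quasi-likelihood test). Of these, 4809 were higher in the ES IPs (29.7% of those tested) and 4572 lower (28.2%). At least a 2-fold difference was seen for 3699 of the higher and 3254 of the lower genes, and at least an 8-fold difference for 599 and 272. The median log2 fold change over all tested genes was 0.03, with the middle 50% of genes between -0.88 and 1.08. The 3 ES values did not overlap the 3 JL values for 10668 genes (65.8%). With shares this large, a single call says little by itself, so lists of genes are read below against 29.7% higher and 28.2% lower. Levels are CPM, counts divided by library size, with the sizes adjusted by TMM (trimmed mean of M values) over all 9 libraries. Library values are given in the order of replicates 1, 2 and 3, and fold changes as log2 of ES IP over JL IP with the standard error.

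**Figure D1:**
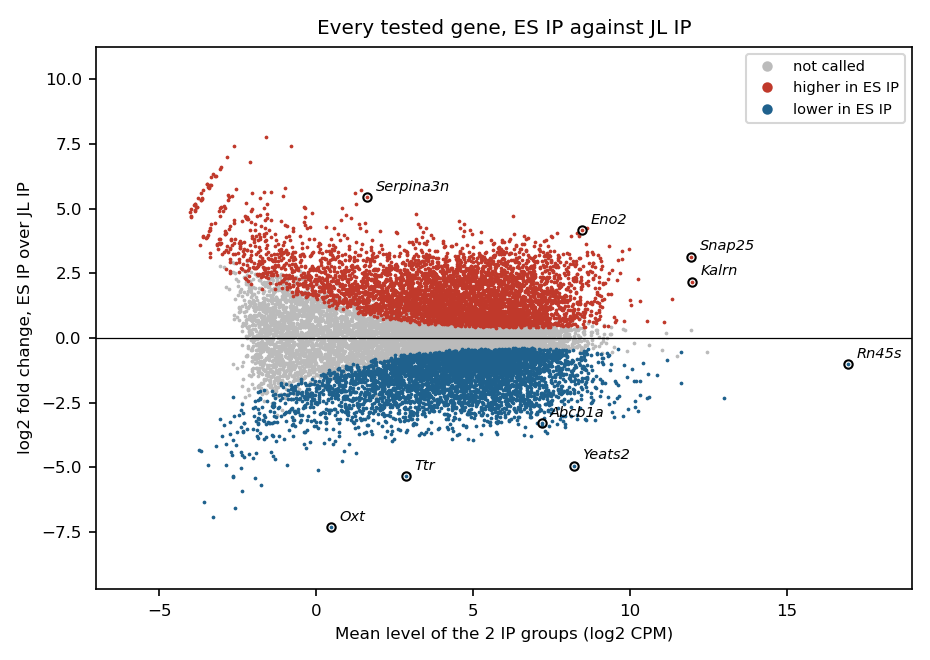
Log2 fold change of ES IP over JL IP (vertical axis) against the mean level of both groups in log2 CPM (horizontal axis), 1 point per tested gene, red for the 4809 genes higher in the ES IPs, blue for the 4572 lower ones and grey for the rest. Called genes lie on both sides of 0 at nearly every level, and Oxt, Ttr and Yeats2 are among the largest falls.

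Endothelial RNA was lower in the ES IPs and neuronal RNA higher. Abcb1a (chr5:8660077-8748575, mm10, a protein-coding gene on the plus strand), the efflux pump whose regulatory sequence drives the tag, stood at 56.0, 44.0 and 39.6 CPM in the ES IPs and at 445, 482 and 446 among the JL IPs. It stood at 1.86, 2.66 and 1.81 in the JL inputs. The ES values lay below every JL IP value and above every input value, and the log2 fold change was -3.30 ± 0.19 (adjusted p = 7.29e-07). A gene on the opposite strand overlaps exons of Abcb1a, and since the strand setting of the counting is not given, its reads cannot be told apart. The same holds for other genes named below that overlap a gene on the opposite strand, among them Slc2a1, Sepp1, Stab1, Dbp, Aldoa, Spcs1, Otx2, Glul, Cdkn1a, Atp5a1 and Atp5j. Rpl10a, the ribosomal protein that carries the tag, was low throughout, at 7.17, 3.45 and 2.96 against 10.7, 9.21 and 9.14 CPM (log2 fold change -1.09 ± 0.35, adjusted p = 0.0197). Its call was lost without ES IP replicate 2 (adjusted p = 0.0843) or ES IP replicate 3 (adjusted p = 0.0799), and its row cannot tell the transgene's RNA from that of the mouse's own gene.

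Snap25 (chr2:136713453-136782428, plus strand), a SNARE protein of synaptic vesicle release, stood at 12630, 11920 and 11100 CPM in the ES IPs against 1237, 1270 and 1541 among the JL IPs (log2 fold change 3.14 ± 0.19, adjusted p = 7.29e-07). The JL inputs held 9973, 10070 and 10820 CPM, so all ES values lay above the values of the tissue itself on this scale, while with plain library sizes the ES and input ranges overlapped. Eno2 (chr6:124760053-124769673, minus strand), the enolase of neurons, went further, at 1547, 1602 and 1406 against 86.0, 73.5 and 94.4 CPM (log2 fold change 4.17 ± 0.19) with 564, 547 and 493 in the inputs. Ttr, the thyroxine carrier of choroid plexus epithelium, moved against the neuronal genes: it stood at 1.26, 1.53 and 0.668 CPM in the ES IPs, 38.1, 49.9 and 53.6 among the JL IPs and 625, 702 and 606 in the inputs (log2 fold change -5.35 ± 0.32). The ES and JL IPs did not overlap for any of these 4 markers, which also held for 65.8% of all tested genes. CPM values are shares of a library and not amounts of endothelial RNA. Fewer endothelial cells behind a library, less endothelial RNA per cell and more RNA of other cells cannot be told apart in these values. No cause was tested.

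**Figure D2:**
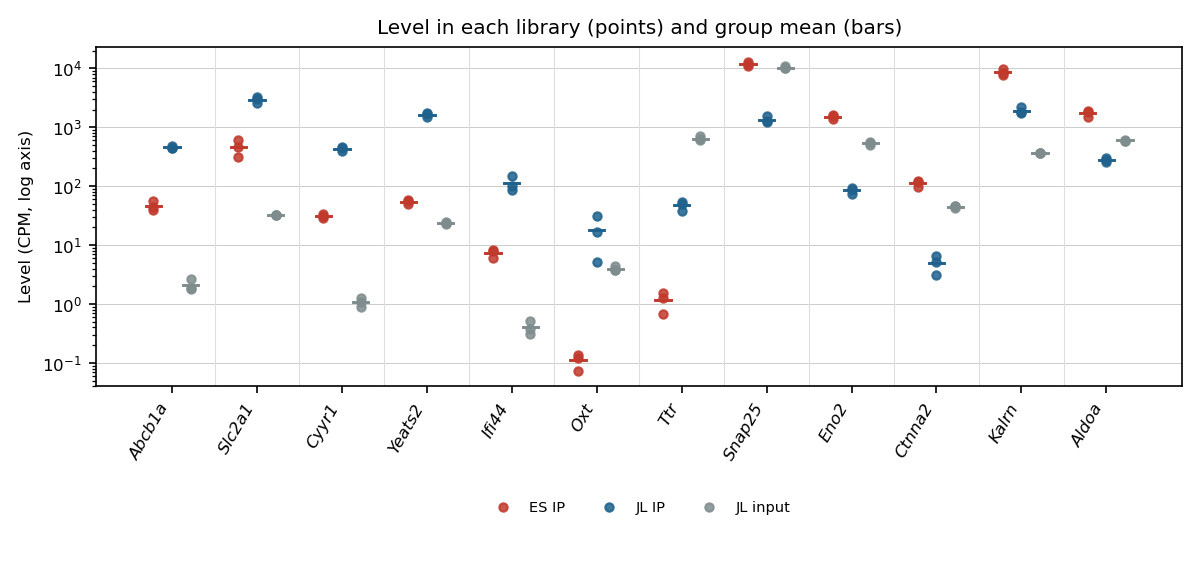
Level of 12 genes in CPM (vertical log axis) in each library, as points, with group means as bars: ES IP red, JL IP blue, JL input grey. Abcb1a, Slc2a1, Cyyr1, Yeats2 and Ifi44 lie between JL IP and input in the ES IPs, Oxt and Ttr lie below both, and Eno2, Ctnna2, Kalrn and Aldoa lie above both.

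The largest falls in fold were taken among called genes whose groups did not overlap and whose higher group reached 10 CPM. Oxt, the hormone oxytocin, led them and is discussed with the regional genes below. Yeats2, a reader of histone acylation, stood at 49.2, 57.5 and 55.4 CPM in the ES IPs and 1684, 1524 and 1738 among the JL IPs, against 23.4, 23.2 and 24.5 in the inputs (log2 fold change -4.93 ± 0.19). The ES values thus lay much closer to the tissue level than the JL values. Integrin alpha 6, Itga6, which binds laminin, stood at 7.68, 9.30 and 7.38 against 148, 114 and 118 CPM (log2 fold change -3.96 ± 0.20), and its ES values overlapped the input values of 7.23, 7.54 and 8.12. The lysophosphatidic acid receptor Lpar6 (-3.90) and the thiamine transporter Slc19a3 (-3.70) followed, with the cytokine receptor chain Il2rg (-3.75), the death receptor ligand Tnfsf10 (-3.72), the glycosyltransferase B3gnt3 (-3.75) and the membrane protein Cyyr1 (-3.80). Cyyr1 stood at 31.1, 33.1 and 28.4 against 458, 389 and 443 CPM and 1.08, 1.25 and 0.872 in the inputs. The interferon-induced Ifi44 (-3.90) and the interferon-induced GTPase Tgtp2 (-3.72) were in the same range, as were Serpina3g (-3.91), Nxpe4 (-3.74) and Bahcc1 (-3.71). Absence of overlap between ES and JL IP values was a condition for choosing these genes, and the largest rises in fold below. It is therefore not a result.

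By fall in CPM, the genes that lost most were thymosin beta 4, Tmsb4x, an actin-binding peptide (1739 ± 873 in the ES IPs against 5858 ± 451 among the JL IPs, mean ± SD, n = 3 each), the surface protein Ly6e (458 ± 119 against 3286 ± 170.0) and the hypoxia-inducible factor Epas1 (713 ± 71.2 against 3514 ± 239.7). The monocarboxylate transporter chaperone basigin, Bsg, stood at 1068, 516 and 446 against 3430, 3331 and 3347 CPM, and the glucose transporter Slc2a1 at 608, 458 and 315 against 2978, 2582 and 3235. In both genes ES IP 1 was the highest of the ES libraries. B2m, the light chain of MHC class I, fell from 2517 ± 354 to 308 ± 113 CPM (log2 fold change -3.02), and the taurine transporter Slc6a6 from 2707 ± 258 to 499.8 ± 44.9 (-2.44). Pcp4l1 (-2.21), the selenium carrier Sepp1 (-2.74) and the translation factor Eif4g2 (-1.44) completed the 10. Eif4g2 was the only one of the 10 whose ES values, 1083, 1127 and 1180 CPM, lay below the input values, 1217, 1222 and 1252.

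The lists of endothelial genes fell with few exceptions. All 30 genes of the pan-endothelial list fell (median log2 fold change -2.95, against 28.2% lower and a median of 0.03 over all genes), and their summed level was 1284 to 1852 CPM in the ES IPs, 10820 to 11430 among the JL IPs and 84.0 to 99.0 in the inputs. The ES IPs thus held endothelial RNA above the tissue level and below the JL IPs. The adhesion receptor Adgrl4 changed most (-3.43) and Tm4sf1 least (-1.39); Tm4sf1 stood at 218, 84.5 and 75.6 CPM in the ES IPs, high in replicate 1, and its log2 fold change was -2.06 without that library. In the angiogenic receptor list, which shares members with the first, 22 of 24 were lower and none higher (median -2.33). The VEGF receptor Kdr fell most, to 12.7, 9.82 and 9.00 from 97.5, 129 and 111 CPM (-3.42 ± 0.21). The sphingosine 1-phosphate receptor S1pr1 (-2.04), the BMP receptor Bmpr2 (-1.60) and the netrin receptor Unc5b (-1.21) fell less. Bmpr2 is abundant in the tissue, at 461 ± 6.35 CPM in the inputs, and its ES mean of 303 ± 72.0 CPM was below that.

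Transcription factors of endothelium were lower in 25 of 26 cases (median -2.44). Hey1, a Notch target, showed the smallest fall, at 198, 168 and 177 against 346, 357 and 326 CPM (-0.92 ± 0.16). The related Heyl was the exception and was higher, at 6.199, 3.72 and 5.97 against 1.59, 1.62 and 1.65 CPM (1.71 ± 0.36, adjusted p = 0.00175). The inputs held 4.85, 9.40 and 6.19 CPM of Heyl, above every JL IP. Of 17 genes of Wnt and Norrin signalling, which maintains the barrier, 15 were lower (median -2.55); Fermt1, barely detected among the JL IPs, was higher, at 2.41, 2.22 and 2.67 against 0.0338, 0 and 0.627 CPM.

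Transport genes were less uniform. Of 11 ABC pumps, 5 were lower, 2 higher and 4 not called (median -1.04). The lower ones were Abcb1a, Abcg2, Abcc4, Abcc6 and Abca1. Abcg2, the other main drug pump of the barrier, stood at 53.6, 37.4 and 33.0 against 328, 311 and 306 CPM (-2.93 ± 0.21). The higher ones were Abcc5 and Abca2, the latter a lipid pump of oligodendrocytes and neurons, at 39.9, 66.3 and 51.0 against 26.1, 20.9 and 32.4 CPM with 93.0 ± 2.11 in the inputs. Among nutrient transporters 17 of 19 were lower and none higher (median -2.38), from Slc19a3 down to the cationic amino acid transporter Slc7a1 (-1.005). Among transporters of organic ions 7 of 9 were lower. They included the thyroid hormone carrier Slco1c1 (186, 118 and 96.6 against 928, 803 and 859.8 CPM) and Slco2b1 (-3.21), which carries steroid conjugates. Slc22a23 was higher (1.67), and the inputs held more of it (80.0 ± 1.63 CPM) than the JL IPs (21.3 ± 2.69).

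Of 15 genes of transcytosis and caveolae, 12 were lower and none higher (median -2.03). Mfsd2a, the lipid transporter that holds caveolar transport down, fell by most (25.4, 17.2 and 15.2 against 162, 128 and 174 CPM), and the caveolin Cav1 fell to 175, 124 and 113 from 793, 775 and 663 CPM. The transferrin receptor Tfrc fell least (-1.04), with ES values of 43.0, 32.5 and 41.0 CPM that surround the input values of 38.6, 38.8 and 42.6. Of 17 junction proteins 12 were lower and 3 higher (median -1.45); the scaffold Tjp1 stood at 213, 301 and 242 against 928, 1032 and 903 CPM (-1.92 ± 0.18), and the higher ones were Cldn1, Cgn and Magi1. Interferon response and MHC class I genes were lower in all 26 cases (median -2.45), H2-D1 least (165, 85.7 and 74.4 against 234, 264 and 224 CPM, -1.15 ± 0.28). Basement membrane genes were lower in 15 of 16 cases (median -2.75), arterial genes in 14 of 18 and venous and adhesion genes in 12 of 13. Of the arterial genes the endothelin precursor Edn1 fell most (-2.76). Of the venous ones the iron-trapping Lcn2 fell most (-3.70, with JL values from 12.6 to 80.9 CPM, and -2.61 without JL IP 1), and Tmem252 least (59.2, 39.3 and 17.9 against 88.5, 109 and 74.8 CPM, -1.22). Where an endothelial list had 0 higher members by edgeR, limma-voom and DESeq2 also gave 0, and at an unadjusted p under 0.05 the count was 0 except for 1 nutrient transporter and 1 basement membrane gene. Leaving out ES IP 1 gave 1 higher nutrient transporter, and leaving out JL IP 2 1 higher gene of transcytosis.

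**Figure D3:**
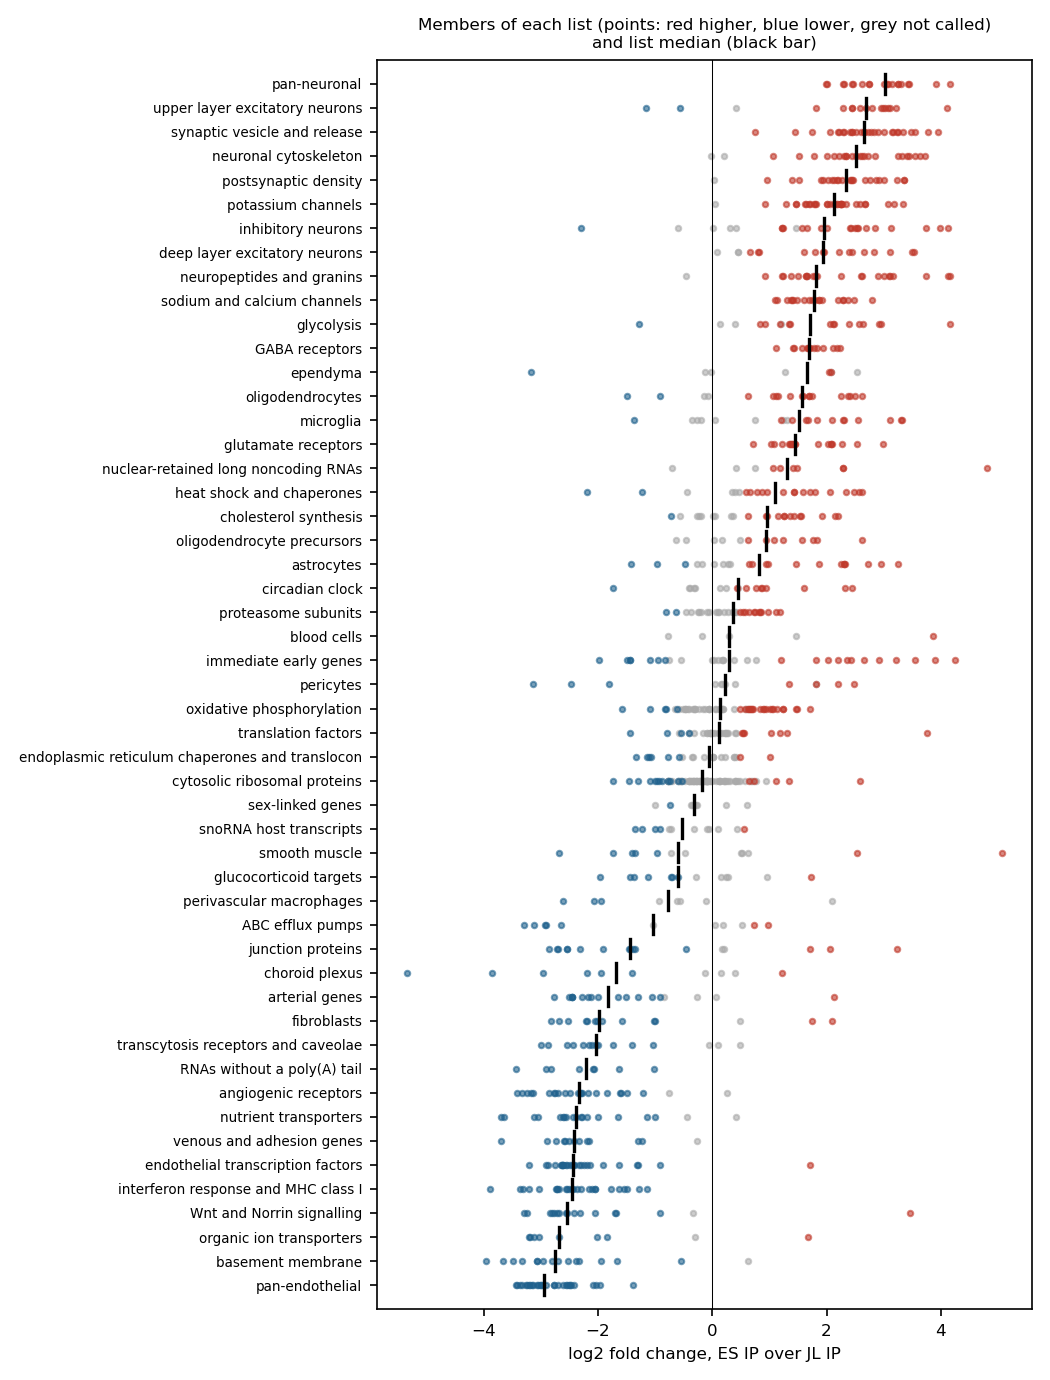
Log2 fold change of ES IP over JL IP (horizontal axis) for the tested members of each list with at least 5 of them, as points (red higher, blue lower, grey not called), with the list median as a black bar; lists are ordered by median. Endothelial lists have medians from -1.04 for ABC pumps to -2.95 for pan-endothelial genes. RNAs without a poly(A) tail (-2.21), fibroblast (-1.97) and choroid plexus genes (-1.68) lie among them. Neuronal lists have medians from 1.44 to 3.03, with glycolysis (1.71), ependyma (1.66), oligodendrocyte (1.56) and microglia genes (1.52) among them. Ribosomal protein genes lie at -0.17.

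Neuronal genes rose across compartments, and the lists below with 0 lower members by edgeR also had 0 at an unadjusted p under 0.05, by limma-voom and by DESeq2; without ES IP 2, 1 cytoskeleton gene was lower. All 20 pan-neuronal genes were higher in the ES IPs (median 3.03, against 29.7% higher and 0.03 over all genes), with the RNA-binding protein Celf4 changing least, at 589.9, 808 and 730.0 against 149.7, 148 and 236 CPM (1.996 ± 0.23). Their summed level was 25220 to 26860 CPM in the ES IPs, 2797 to 3731 among the JL IPs and 21230 to 22410 in the inputs. All 29 genes of synaptic vesicles and release were higher (median 2.66). Dynamin 1, Dnm1, which pinches vesicles off the membrane, stood at 854, 1344 and 1105 against 73.8, 59.99 and 80.7 CPM (3.94 ± 0.23), and the clamp protein complexin 2, Cplx2, at 1681, 2051 and 2989 against 178, 173 and 223 (3.55). Slc17a6, the vesicular glutamate transporter of subcortical neurons, rose least, to 17.4, 21.2 and 19.4 from 10.9, 12.5 and 10.99 CPM (0.75 ± 0.20).

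Of 24 postsynaptic density genes 23 were higher and none lower (median 2.35). Kalrn, a guanine nucleotide exchange factor of spines, was the second largest rise in CPM after Snap25, at 7871, 8232 and 9799 in the ES IPs against 1792, 1772 and 2171 among the JL IPs (2.18 ± 0.19). The inputs held only 365, 359.7 and 362 CPM, so Kalrn lay above the tissue in both IP groups. The kinase Camk2a stood at 1573, 2826 and 2301 against 208, 233 and 389 CPM (3.01) and the scaffold Cnksr2 rose most in fold (283, 614 and 449 against 40.7, 37.0 and 53.0 CPM, 3.36). Among genes of the neuronal cytoskeleton 23 of 25 were higher (median 2.52), from the stathmin Stmn3 (3.72) to its relative Stmn1 (1.06). The microtubule protein Map1b and the motor Kif5a had ES levels of 902, 2450 and 1658 and 998, 1293 and 1784 CPM, both lowest in replicate 1. Stmn3 was the reverse, at 696, 369 and 314 CPM and highest in replicate 1.

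The other genes with the largest rises in CPM, apart from Cplx2 and Camk2a, were the calcium sensor Vsnl1 (2519 ± 502 against 302 ± 64.3, mean ± SD, n = 3 each), calmodulin 2, Calm2 (2772 ± 426 against 274 ± 11.7), the small GTPases Arf3 (4356 ± 871 against 1538 ± 245) and Rab6b (2722 ± 631 against 557 ± 31.5), Ndrg4 (3296 ± 196 against 307 ± 54.3) and the adaptor Ywhag (1960 ± 159.5 against 346 ± 21.7). In fold, the largest rises among genes of at least 10 CPM were Serpina3n, a protease inhibitor of reactive astrocytes (18.9, 25.1 and 17.0 against 0.879, 0.314 and 0.231 CPM, 5.43 ± 0.44), Rlbp1, a retinal-binding protein (5.02), the nuclear RNA Neat1 (4.81), the kinase Map3k9 (219, 388 and 590.3 against 9.53, 17.5 and 17.9 CPM, 4.73) and the neuronal catenin Ctnna2 (96.7, 118 and 122 against 6.53, 3.13 and 5.25 CPM, 4.50). The actin regulator Coro1a (4.42), the phospholipase Pla2g4e (4.41), the kinase Dclk3 (4.26), the complexin Cplx3 (4.402), the granin Scg5 (4.16), Dcaf12l1 (4.27), the troponin Tnnc1 (4.46) and the GTPase Rhov (4.25) followed, with Egr2, given with the immediate early genes. Serpina3n, Tnnc1, Pla2g4e and Rhov rest on low JL values, and 1 JL library moved each by more than 1.5 times: log2 fold changes were 6.19 for Serpina3n without JL IP 1, 5.45 for Tnnc1 and 4.99 for Rhov without JL IP 3, and 5.07 for Pla2g4e without JL IP 2. Without ES IP 3, Neat1 fell to a log2 fold change of 4.11.

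Membrane receptors and channels of neurons had list medians from 1.44 to 2.13, and vesicle, postsynaptic and cytoskeleton genes from 2.35 to 2.66, a description with no test of the difference. All 19 glutamate receptor genes were higher (median 1.44), from the kainate receptor subunit Grik3 (2.99) to Grik5 (0.71). The AMPA receptor subunit Gria2 stood at 256, 349 and 350.5 against 98.4, 116 and 155 CPM (1.37 ± 0.21) with 943, 951 and 994 in the inputs, and Gria3 at 202, 244 and 308 against 57.5, 48.1 and 72.6 (2.08). All 14 GABA receptor genes were higher as well (median 1.70), among them the metabotropic Gabbr1 (1.69), Gabra3 (2.24) and Gabra5 (1.12). All 20 sodium and calcium channel genes rose (median 1.77), with the calcium channel subunits Cacnb1 (2.80) and Cacnb4 (2.28) and the sodium channel Scn2a1 (2.38). Of 31 potassium channel genes 30 rose (median 2.13), led by Kcna2 (382, 561 and 722 against 49.5, 49.0 and 65.5 CPM, 3.34). Of 24 genes of neuropeptides and granins 22 rose (median 1.81). They included the prohormone enzyme Cpe (1.82), the granin Chgb (2.89) and, least, the enkephalin precursor Penk (0.92).

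Genes of several kinds of cortical neuron rose. Of upper layer genes 14 of 17 were higher (median 2.69), with the calcium buffer Calb1 at 167, 171 and 140.2 against 9.80, 7.30 and 10.8 CPM (4.10 ± 0.21) and the transcription factor Mef2c at 834, 1268 and 1230 against 203, 205 and 206 (2.44). Stard8 and Cux1, which the JL IPs held above the inputs, were lower (-1.16 and -0.57). The call for Cux1 was lost with library size alone (adjusted p = 0.0530) and without ES IP 2 or any 1 of the JL IPs (adjusted p from 0.0548 to 0.116). Of deep layer genes 15 of 18 were higher (median 1.95), from Tbr1 (131, 244 and 208 against 16.5, 12.9 and 21.3 CPM, 3.52) to Tle4 (0.66). Of inhibitory neuron genes 18 of 24 were higher (median 1.96). Ndnf, a marker of layer 1 interneurons, was the exception, at 13.7, 12.7 and 11.6 against 56.5, 66.6 and 63.6 CPM (-2.29 ± 0.18) and 8.98, 11.2 and 11.4 in the inputs.

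Markers of glia moved in both directions. Of 22 astrocyte genes 13 were higher, 3 lower and 6 not called (median 0.82). Aldh1l1, a folate enzyme, stood at 20.9, 24.7 and 22.9 against 2.47, 2.51 and 2.21 CPM, above the inputs of 7.94, 7.50 and 6.74. The connexin Gjb6, at 26.9, 21.1 and 17.7 against 38.4, 64.2 and 73.8 CPM (-1.43 ± 0.26), and glutamine synthetase, Glul, at 1115, 993 and 832 against 1992, 1959 and 1800 (-0.96 ± 0.18), were lower, and both had JL IP values above the inputs. Of 19 oligodendrocyte genes 15 were higher (median 1.56), and 2 were lower: Mal (-1.49), with JL IP values of 491, 518 and 508 CPM above the inputs' 306, 280.0 and 303, and Cldn11. Of 20 microglia genes 12 were higher and 1 lower. The integrin Itgam stood at 3.26, 3.33 and 2.48 against 0.0338, 0.456 and 0.396 CPM. Of 13 precursor genes 8 were higher, and 5 without ES IP 2, JL IP 1 or JL IP 2. Ptprz1, at 25.1, 95.7 and 32.1 against 10.4, 13.8 and 27.1 CPM, was highest in ES IP 2, and its log2 fold change of 1.57 dropped to 0.75 without that library (adjusted p = 0.114); the call was also lost without JL IP 1 or JL IP 2.

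Lists of other vessel wall cells were mixed or lower. Of 14 fibroblast genes 11 were lower and 2 higher, or 1 higher without any 1 of the 6 libraries (median -1.97); their summed level was 81.3 to 98.5 CPM in the ES IPs, 223 to 347 among the JL IPs and 198 to 219 in the inputs. The matrix protein Ogn stood at 5.86, 4.98 and 4.08 against 24.0, 37.3 and 44.2 CPM and 5.58, 6.78 and 7.49 in the inputs (-2.82 ± 0.27), and Islr at 25.9, 16.9 and 10.6 against 50.4, 73.5 and 91.4 (-2.01). Of 8 perivascular macrophage genes 3 were lower and 0 higher (0 at an unadjusted p under 0.05, 1 with limma-voom, 2 with DESeq2, and 1 without JL IP 1 or JL IP 3): the adaptor Dab2, which endothelium also expresses (37.5, 48.2 and 44.0 against 285, 259.5 and 245 CPM, -2.60), the scavenger receptor Stab1 (-2.07) and the hyaluronan receptor Lyve1 (-1.95). Of 12 smooth muscle genes 5 were lower, led by Smtn (18.7, 20.9 and 18.2 against 141, 109 and 121 CPM, -2.68), 2 higher (4 without JL IP 3) and 5 not called. Their median was -0.59, and 0.08 without JL IP 2. Of 13 pericyte genes 3 were lower, 4 higher and 6 not called (median 0.23, and 0.84 without JL IP 2). These shares are near the 28.2% lower and 29.7% higher over all tested genes. The largest fall among the pericyte genes was that of Ecm2 (7.44, 5.30 and 5.13 against 45.6, 65.8 and 45.8 CPM, -3.13). How far these cells add RNA to either group was not tested.

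The level of the tissue gives a second reference. Across all tested genes, the ES values lay above all 6 JL values, IP and input, for 2114 genes (13.04%), below all 6 for 1101 (6.79%), between low JL IPs and high inputs for 1485 and between low inputs and high JL IPs for 2504. All 30 pan-endothelial genes and all 26 interferon and MHC genes were of the last kind. Of 19 glutamate receptor genes 16, and of 14 GABA receptor genes 12, lay between low JL IPs and high inputs. In contrast, 10 of 20 pan-neuronal genes, 14 of 29 vesicle genes, 10 of 24 postsynaptic genes and 12 of 18 glycolysis genes lay above all JL libraries, against 2 of 20 sodium and calcium channel genes and 5 of 31 potassium channel genes. With plain library sizes the counts above all JL libraries were 1707 genes in all, 7 pan-neuronal, 9 vesicle, 6 postsynaptic and 12 glycolysis genes, and 24 interferon and MHC genes remained between inputs and JL IPs. JL IPs and JL inputs share numbers and lanes, and these counts carry no test.

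The same contrast can be given as a place, on a linear scale that is 0% at the JL IP mean and 100% at the JL input mean, as the median over list members at least 2-fold apart between those means. Over the 3 ES IPs it was 48.4 ± 13.3% (mean ± SD, n = 3) for glutamate receptors and 41.9 ± 10.2% for GABA receptors, 60.8 ± 21.1% for sodium and calcium channels and 34.4 ± 3.06% for oligodendrocyte genes. It was 119.5 ± 21.2% for vesicle genes, 143 ± 40.5% for postsynaptic genes, 128 ± 16.6% for pan-neuronal genes and 207 ± 30.9% for glycolysis genes. The 13 endothelial lists stood from 79.6 ± 7.76% for arterial genes to 92.6 ± 0.554% for basement membrane genes, with pan-endothelial genes at 87.1 ± 3.08%. For neuronal lists the place was lower in ES IP 1 than in the other ES IPs for glutamate receptors, channels, vesicle, postsynaptic and cytoskeleton genes.

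**Figure D4:**
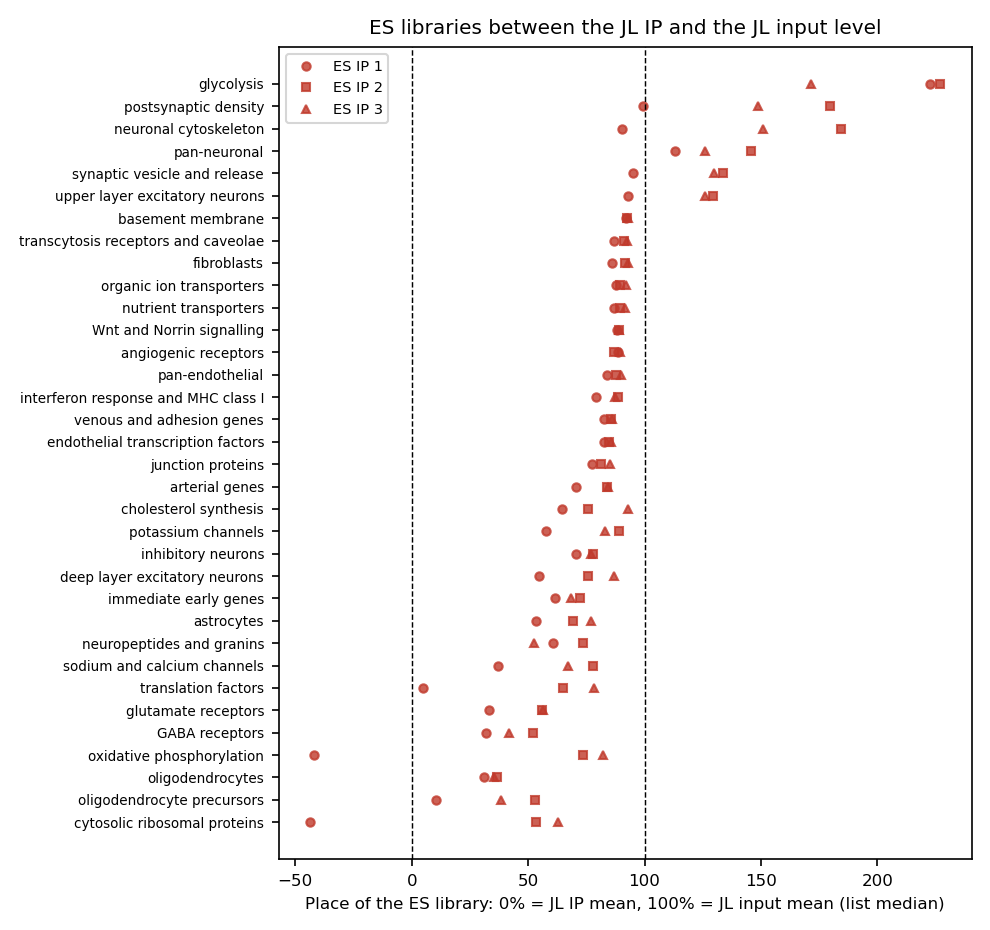
Place of each ES IP (circle, square and triangle for replicates 1, 2 and 3) between the JL IP mean (0%) and the JL input mean (100%), as the median over members, for lists with at least 8 members in this measure. Glycolysis and pan-neuronal genes lie beyond 100% in all 3 ES IPs, glutamate and GABA receptor genes between 31.8% and 56.3%, and endothelial lists between 70.6% and 93.1%.

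Ttr was not the only gene below both JL groups. Of 10 choroid plexus genes 6 were lower in the ES IPs than among the JL IPs, 1 higher and 3 not called (median -1.68), and 6 lay below all 6 JL libraries, against 6.79% of all genes. The lower ones were Ttr, the anti-ageing receptor Kl (1.77, 2.56 and 3.87 against 7.88, 7.12 and 6.83 CPM, inputs 17.8, 16.1 and 17.1), the potassium channel Kcnj13 (0.997, 1.62 and 2.34 against 4.56, 9.95 and 8.19, inputs 4.87, 5.70 and 4.89), the transcription factor Otx2 (6, 1 and 2 counts in the ES IPs against 28, 41 and 35 among the JL IPs), Calml4 (-1.95) and 1500015O10Rik (2.77, 1.32 and 1.17 against 6.999, 12.3 and 21.9 CPM). Clic6 was higher (2.09, 3.63 and 3.32 against 0.947, 1.25 and 1.65 CPM, 1.23 ± 0.44, adjusted p = 0.0325), a call that was lost without ES IP 2, ES IP 3, JL IP 1 or JL IP 2 (adjusted p from 0.0622 to 0.139). Trpm3 (13.7, 21.3 and 22.4 against 16.7, 13.7 and 20.9 CPM), Prlr (1.14, 1.05 and 1.03 against 0.879, 1.34 and 1.29) and Sostdc1 (1.12, 0.868 and 0.406 against 1.01, 0.0285 and 0.792) did not pass the test. The list has 14 names, and how many pass the filter on low counts depends on the libraries kept. Its median was -2.52 without ES IP 3 and -2.46 without JL IP 1, and 9 genes were lower without JL IP 1 and 10 with all 9 libraries in 1 fit. For Otx2 the log2 fold change of -3.86 became -4.83 without ES IP 1.

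RNAs that mark brain regions other than the cortex were looked at next, with lists written after the values were seen, as a description. Oxt stood at 0.0729, 0.137 and 0.119 CPM in the ES IPs, or 3, 6 and 5 counts, and at 31.7, 5.19 and 17.0 among the JL IPs, or 938, 182 and 514 counts, with 3.73, 4.45 and 3.81 in the inputs (log2 fold change -7.30 ± 0.71). The JL values were spread widely, yet the lowest lay far above the ES values, and without JL IP 1 the log2 fold change was -6.61. Pomc, the precursor of hypothalamic melanocortins, stood at 4.47, 2.49 and 3.70 against 29.9, 21.5 and 17.0 CPM with 2.38, 2.98 and 2.04 in the inputs (-2.67 ± 0.30). All 3 JL IPs thus held more Oxt and Pomc than every input, while the ES IPs held less Oxt than the inputs. Hcrt, the orexin precursor, had 3 counts over the 3 ES IPs against 104 over the JL IPs and 1172 over the inputs, and Pmch, the precursor of melanin-concentrating hormone, 5 against 170 and 900. Shox2, a transcription factor of thalamic neurons, had 2 counts against 169 and 1408.

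Tcf7l2, a factor of thalamic neurons, stood at 17.2, 24.7 and 27.8 against 78.0, 79.7 and 83.3 CPM (-1.79 ± 0.20) with 111, 106 and 98.0 in the inputs, and the kinase Prkcd at 5.93, 5.85 and 4.96 against 19.8, 19.4 and 18.9 (-1.79) with 41.7, 36.3 and 32.02. Of 11 listed hypothalamic genes 6 were tested, of which 4 were lower and none higher. Their median was -4.00, and from -1.54 to -2.69 without ES IP 1, 2 or 3, JL IP 1 or JL IP 2. The fall was not shared by all: Avp (3.36, 2.65 and 1.22 against 4.97, 2.34 and 3.53 CPM, -0.58 ± 0.46) and Nkx2-1 (0.90 ± 0.99) were not called. Of 11 thalamic genes 5 were lower and 3 higher, among them Slc17a6 and Ntng1 (0.75). Over all tested genes 28.2% were lower and 29.7% higher. Of 11 striatal genes, by comparison, 8 were higher and none lower, including the dopamine signalling protein Ppp1r1b (196, 158 and 179.7 against 42.1, 35.5 and 56.6 CPM, inputs 241, 235 and 268). The summed level of the hypothalamic list was 6.78 to 8.27 CPM in the ES IPs, 32.3 to 71.0 among the JL IPs and 35.2 to 39.0 in the inputs. That of the striatal list was 534 to 672, 197 to 263 and 913 to 956 CPM. The part of the dissection in these values was not tested.

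Immediate early genes, which cells switch on within minutes of stimulation, changed in both directions: 12 of 30 were higher in the ES IPs, 7 lower and 11 not called (median 0.29). Shares in both directions are also what all tested genes show, at 29.7% higher and 28.2% lower, so only the single members are described. Promoters of 4 of them are shown to set genes of both directions side by side, 3 genes that were higher (Egr4, Fos, Npas4) and 1 that was lower (Klf4). Each is the 250 bases before the RefSeq start site, on the strand of the gene (build GRCm38.p6, a patch release of the mm10 assembly), with the short core of the cAMP response element, TGACG or its reverse complement CGTCA, and the TATA box TATAAA in capitals. The windows are chr6:85513590-85513839 (minus strand) for Egr4, chr12:85473640-85473889 (plus) for Fos, chr19:4989972-4990221 (minus) for Npas4 and chr4:55532476-55532725 (minus) for Klf4.
Egr4: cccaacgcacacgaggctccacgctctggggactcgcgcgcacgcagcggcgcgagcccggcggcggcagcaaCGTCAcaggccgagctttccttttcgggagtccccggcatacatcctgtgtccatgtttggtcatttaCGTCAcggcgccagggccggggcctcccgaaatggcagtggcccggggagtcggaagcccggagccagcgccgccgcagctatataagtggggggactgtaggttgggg
Fos: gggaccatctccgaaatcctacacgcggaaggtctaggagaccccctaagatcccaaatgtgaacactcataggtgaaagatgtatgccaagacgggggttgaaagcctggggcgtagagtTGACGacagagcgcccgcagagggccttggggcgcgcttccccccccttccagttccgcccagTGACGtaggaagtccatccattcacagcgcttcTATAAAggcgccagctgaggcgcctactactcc
Npas4: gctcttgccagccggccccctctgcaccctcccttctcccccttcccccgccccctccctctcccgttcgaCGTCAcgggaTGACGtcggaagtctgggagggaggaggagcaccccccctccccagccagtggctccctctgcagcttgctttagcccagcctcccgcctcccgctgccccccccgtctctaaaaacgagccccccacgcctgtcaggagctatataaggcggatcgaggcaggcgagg
Klf4: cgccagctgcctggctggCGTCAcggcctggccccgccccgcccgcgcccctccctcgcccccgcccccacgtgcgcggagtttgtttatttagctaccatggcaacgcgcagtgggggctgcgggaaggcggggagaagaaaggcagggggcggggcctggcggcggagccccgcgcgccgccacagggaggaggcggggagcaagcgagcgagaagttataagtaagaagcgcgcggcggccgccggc
This core occurs 2 times in each of the first 3 windows and 1 time in that of Klf4. No stated rule chose the genes shown, and the lower genes Jun, Jund and Klf6 lacked the core at their entry. The windows shown therefore do not stand for the genes of either direction. No matches overlap in these windows, though both forms overlap in the full palindromic element. The core is found in 17.8% of the 32851 RefSeq promoters of this length, on either strand. Among immediate early genes with an entry, it was at 1 or more starts of 8 of 8 higher, 2 of 5 lower and 6 of 10 uncalled genes. A gene with several starts was counted once, though the core was at only 1 of 7 starts of Bdnf, 1 of 2 of Homer1 and 3 of 5 of Egr2. These counts are per gene and the 17.8% is per promoter, so they are unlike measures. No entry was held for Egr1, Egr3, Arc and Nptx2, which were higher, Sik1 and Ier2, which were lower, and the uncalled Klf10. The TATA box letters occur in 7.59% of promoters. A match describes letters and not a bound site.

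The higher genes included several that are known to be induced by neuronal activity. Egr2, a zinc finger factor, stood at 109.7, 105 and 97.8 against 7.34, 4.05 and 5.18 CPM (4.24 ± 0.24, adjusted p = 6.98e-07) and 17.0, 23.4 and 16.4 in the inputs, above every JL library. Arc, which removes AMPA receptors from synapses, stood at 270.0, 328 and 249 against 21.2, 23.03 and 28.2 CPM (3.55 ± 0.20) and 93.6, 106 and 108 in the inputs. Egr4 stood at 34.7, 46.6 and 38.4 against 2.87, 2.48 and 2.71 CPM (3.89 ± 0.22) and Npas4, a factor specific to neurons, at 26.8, 30.2 and 32.2 against 2.67, 3.02 and 6.17 (2.91 ± 0.32). Fos, at 81.8, 68.4 and 64.1 against 21.7, 8.21 and 4.42 CPM (2.65 ± 0.45), varied among the JL IPs, and without JL IP 1 its log2 fold change was 3.50. Egr1 (2.35), Egr3 (2.19), Junb (1.82), Nr4a3 (1.20), Homer1 (2.43), the growth factor Bdnf (2.02) and Nptx2 (3.22) were higher as well. Fosb differed more within the JL group, at 83.9, 4.45 and 9.71 CPM, than between the groups (ES IPs 42.0, 77.0 and 46.7, adjusted p = 0.428).

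The lower ones included the factors that blood flow induces in endothelium, Klf2 (229, 128 and 147 against 483, 465 and 415 CPM, -1.43 ± 0.23) and Klf4 (132, 107 and 91.4 against 510.5, 405 and 386, -1.97 ± 0.20), which the inputs held at 1.31 ± 0.393 and 2.58 ± 0.485 CPM. Klf6 (-1.44), the kinase Sik1 (-1.49), Jun (-1.10), Jund (-0.82) and Ier2 (-0.95) were lower too. In all 7 of them the ES values lay below the JL IPs and above the inputs. In the ES IPs, 10 immediate early genes lay above all 6 JL libraries (33.3%, against 13.04% of all genes).

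Chaperones of the cytosol rose. Of 22 heat shock and chaperone genes 16 were higher and 2 lower (median 1.09), against 29.7% and 28.2% of all tested genes. Above all JL libraries lay 14 of them (63.6%, against 13.04% of all tested genes). Hsp90ab1 stood at 2139, 2367 and 1873 against 669.9, 848 and 849 CPM (1.43 ± 0.18) with 837, 809 and 735 in the inputs, and Hsph1, a nucleotide exchange factor for Hsp70, at 512, 733 and 624 against 81.4, 103 and 130.4 (2.57 ± 0.22). The inducible Hsp70 gene Hspa1b, which has a near-identical neighbour, rose to 9.16, 10.3 and 6.49 from 0.676, 2.02 and 1.52 CPM (2.61). The cochaperone Bag3 fell, to 27.1, 43.2 and 30.8 from 153, 146 and 161 CPM (-2.19 ± 0.20). Glycolysis genes were higher in 14 of 18 cases (median 1.71), and the aldolase Aldoa stood at 1908, 1806 and 1491 against 277, 256 and 306 CPM (2.63 ± 0.18) with 613, 593 and 589 in the inputs. The muscle enolase Eno3 was lower (-1.27), a call lost without ES IP 2 (adjusted p = 0.0565). Of 17 clock genes 9 were higher, such as Npas2 (49.6, 77.3 and 74.2 against 12.1, 9.55 and 15.1 CPM, 2.45), and 1, Dbp, was lower (19.7, 14.0 and 16.1 against 52.3, 50.2 and 63.8 CPM, -1.74 ± 0.20); without ES IP 1, 3 were lower. Of 13 glucocorticoid targets 7 were lower, such as the cell cycle inhibitor Cdkn1a (153, 181 and 108 against 631, 585 and 509.8 CPM, -1.97), and 1 higher, Zbtb16 (1.72).

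RNAs without a poly(A) tail were lower in the ES IPs in all 8 tested cases (median -2.21). Rn45s stood at 121400, 85900 and 62240 CPM against 197500, 182300 and 166200 (-1.01 ± 0.24). The linker histone Hist1h1c stood at 10.99, 8.29 and 5.78 against 93.8, 83.0 and 94.4 CPM (-3.43 ± 0.25), and the core histones Hist1h2bc (-2.33) and Hist1h2be (-2.08) were lower with it. Some copies of such histone genes also make tailed RNA, and the files do not tell these apart. Without ES IP 2, 5 of the list were called, and without ES IP 3, 4.

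Within the ES IPs alone the common biological coefficient of variation was 24.7%, against 23.1% among the JL IPs and 6.61% in the inputs. The 3 ES libraries differed by transcript length. Genes were put in 10 equal classes by length. Over the shortest class (up to 1406 bases, 15136 genes with a length) the median log2 level over the JL IP mean, with 0.5 CPM added to both, was 0.11 in ES IP 1, -0.48 in ES IP 2 and -0.51 in ES IP 3, and over the longest class (from 6842 bases) it was -0.01, 0.51 and 0.54. In each JL IP these medians stayed between -0.07 and 0.04. Across the ES against JL fold changes the medians ran from -0.31 in the shortest class to 0.39 in the longest, a description over genes that are not replicates.

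**Figure D5:**
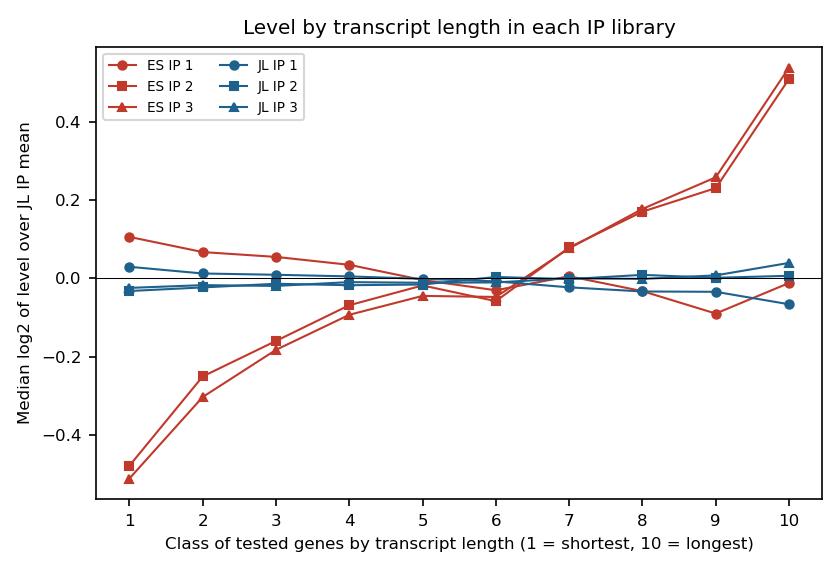
Median log2 of the level over the JL IP mean (vertical axis) in 10 classes of tested genes by transcript length (horizontal axis, 1 is the shortest), 1 line per IP library, ES red and JL blue. ES IP 2 and ES IP 3 rise from -0.48 and -0.51 to 0.51 and 0.54, while ES IP 1 and the JL IPs stay close to 0.

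The calls for several housekeeping lists depended on single libraries. Of 82 ribosomal protein genes 5 were higher and 12 lower in the ES IPs (median -0.17). Without ES IP 1, 2 were higher and 37 lower (median -0.57), and without ES IP 3, 10 were higher and 3 lower (median 0.01). Without ES IP 2, 3 were lower, without JL IP 1, 7, and without any 1 of the JL IPs 2 or 3 were higher. Rpl4 stood at 790.2, 479 and 438 CPM in the ES IPs against 593, 565 and 558 among the JL IPs, so ES IP 1 lay above and the other ES IPs below the JL range. Of 55 oxidative phosphorylation genes 21 rose and 5 fell (median 0.14), and without ES IP 1, 18 were higher and 24 lower (median -0.22). Without JL IP 2, 12 were higher, and the lower count was 2 without ES IP 2 or ES IP 3 and 3 without JL IP 1. Atp5a1, an ATP synthase subunit, was higher at 1240, 1323 and 1080 against 375, 366 and 375 CPM (1.71), and Atp5j, another subunit, lower at 224, 134 and 114 against 484, 476 and 451 (-1.58). Of 34 translation factors 7 were higher and 4 lower. The lower count was 8 without ES IP 1 and 2 without ES IP 3 or any 1 of the JL IPs. The neuronal elongation factor Eef1a2 rose most, to 222, 331 and 228 from 16.8, 17.8 and 23.1 CPM (3.76 ± 0.23).

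Single ES libraries stood apart for some genes. Of 7258 genes with at least 20 CPM in the ES IPs on average, predicted genes left out, 184 were over 2-fold above both other ES IPs in replicate 1, 35 in replicate 2 and 2 in replicate 3. The 5 widest were all high in ES IP 2. The spectrin Sptan1 stood at 142, 3049 and 225 CPM, its partner Sptb at 32.3, 189 and 71.4, the scaffold Mapk8ip2 at 22.4, 280.1 and 25.6, the spine protein Ppp1r9a at 264, 1700 and 449.8 and the flavoprotein Mical3 at 35.8, 194 and 71.1. Without ES IP 2, Sptan1 went from a log2 fold change of 2.88 to 0.26 (adjusted p = 0.429), and with limma-voom to 1.61 (adjusted p = 0.102), and Mical3 from 1.36 to 0.47 (adjusted p = 0.201). Both calls were also lost without JL IP 1 or JL IP 2. The others stayed called, Mapk8ip2 at 1.95, Ppp1r9a at 2.12 and Sptb at 2.71. The nuclear RNAs Neat1 and Malat1 also varied, at 16.8, 42.5 and 86.2 and 1202, 1936 and 3778 CPM in the ES IPs against 1.52, 1.77 and 1.88 and 3096, 4087 and 4025 among the JL IPs, highest in ES IP 3. Of 10 nuclear-retained RNAs 7 were higher in the ES IPs (median 1.30), and Malat1 was not (adjusted p = 0.0994).

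The sex-linked genes differed by library more than by group. The Y-linked Uty, Kdm5d and Eif2s3y stood at 4.01, 4.71 and 4.94, 4.13, 6.99 and 6.16 and 10.99, 9.30 and 10.4 CPM in the ES IPs. In JL IP 1 they stood at 17.8, 21.3 and 20.3 CPM, and in JL IPs 2 and 3 at no more than 0.033. Xist, transcribed from the inactive X chromosome, stood at 0.851, 4.13 and 1.62 CPM in the ES IPs, 1.72, 5.59 and 5.84 among the JL IPs and 0.0192, 19.3 and 24.6 in the inputs. All 3 ES IPs thus held Y-linked RNA as well as some Xist. So did JL IP 1, at 1.72 CPM of Xist, though the input of the same number held 0.0192. Only 1 of the 3 JL pairs of IP and input held Y-linked RNA. Of 9 sex-linked genes 1 was called, Kdm6a, an X-linked demethylase (48.8, 69.2 and 62.9 against 83.8, 115 and 102 CPM, -0.74 ± 0.19); without JL IP 1, and with limma-voom, 4 were higher. Without JL IP 1, the only JL IP with Y-linked RNA above 0.04 CPM, the median log2 fold change was -2.96 for pan-endothelial and 2.94 for pan-neuronal genes. Presence of Y-linked RNA then coincides with the group, so these medians cannot tell sex from group.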

How the data were processed

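RNA bound to tagged ribosomes was measured by sequencing in 6 libraries, with 3 inputs as reference. The deposited values are raw counts per gene; reads were aligned with STAR 2.0.0e to mm10 and counted with HTSeq, per the submitters' processing notes. Annotation, strand setting and filters: not given in the sources used here. All p-values and CPM were computed here. Of 32531 rows, 23155 are symbols of GENCODE M21, used for positions and length; promoters are from RefSeq. HTSeq's special rows were left out. The fit used edgeR 4.0.16 in R 4.3.3 (filterByExpr, TMM, quasi-likelihood, Benjamini-Hochberg, threshold 0.05), on the 6 IPs only. It was also run on simulated data, in which a far smaller share of genes differed than here. That run therefore does not cover differences as widespread as these. A count of 3 equals 0.0649 to 0.0723 CPM in the ES IPs and 0.0793 to 0.0938 in the JL IPs, counting error only. No pair of files agreed within sampling noise.

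Members and the 51 gene lists were chosen with earlier results of these data known. Named genes are the given markers, the 15 largest rises and falls in fold, the 10 in CPM, the 2 highest and the extreme called members of each list, and the 5 widest among the ES IPs, without predicted genes; lists of choroid plexus, immediate early, untailed and sex-linked genes could be named in full, and regional genes were added after their values were seen. Alternatives were DESeq2, limma-voom, other scalings, filters and fits, and leaving out each library. Reads of overlapping genes on opposite strands, and of near-identical copies, cannot be told apart. Some genes that the naming rule selects are not reported here.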

Additional observations from a re-analysis of the deposited data

How the results depend on the processing

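The counts of genes higher and lower in the ES IPs stayed within 1.5 times the main 4809 and 4572 under every alternative run. They were 4851 and 4528 with upper quartile scaling, 5004 and 4302 with library size alone, 4996 and 4552 with no filter, 4552 and 4503 with at least 1 CPM in 3 libraries, 4798 and 4583 without Rn45s, 5081 and 4753 with limma-voom, 5155 and 4814 with DESeq2, and 5419 and 5587 with all 9 libraries in 1 fit. Leaving out 1 library gave 4149 to 4910 higher and 3820 to 4994 lower genes. Replicate numbers do not pair the libraries: deviations of same-numbered ES and JL IPs correlated at 0.0544, -0.0205 and 0.00669, and 1 of the 3 ES IPs correlated best with its own number. With the number as a block, 4771 genes were higher and 4532 lower. For the 199 genes named with a fold change, 15 alternatives gave 2981 values, of which 2907 kept their direction and their side of the threshold, 74 kept only the direction and 0 reversed. Most of these genes were named for their calls or fold changes in the main fit, and uncalled ones such as Fosb and Malat1 are not among them. The alternatives also reuse the same libraries, so these counts are no independent support. With plain library sizes the place of the ES IPs moved by more than its SD for pan-neuronal genes (108%), inhibitory neuron genes (64.1%), oligodendrocyte genes (29.8%) and glycolysis genes (171%). Levels below about 1 CPM rest on few counts.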

Other observations

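Of 22 cholesterol synthesis genes 13 rose and 1 fell (0 or 2 when 1 library is left out; median log2 fold change 0.95). Mvd, which makes isopentenyl diphosphate, stood at 22.6, 26.9 and 27.9 CPM against 5.82, 4.93 and 6.17 in the JL IPs and 13.9, 10.8 and 11.6 in the inputs (2.20 ± 0.21), and Hmgcs1, an early enzyme of the pathway, at 158, 223 and 167 against 73.1, 82.2 and 73.6 (1.26). Of 31 proteasome subunit genes 12 were higher and 2 lower (median 0.36), against 29.7% and 28.2% of all tested genes. Above all 6 JL libraries lay 15 of them (48.4%, against 13.04% of all tested genes). The ATPase subunit Psmc5 stood at 337, 353 and 299 against 149, 140.2 and 144 CPM (1.19 ± 0.16), above the inputs of 213, 201 and 198. Without ES IP 1, 7 proteasome genes were lower, and without ES IP 2 or ES IP 3 the count was 0 by the same edgeR test; without JL IP 1 or JL IP 2 it was 1.

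Of 20 tested genes of endoplasmic reticulum chaperones and the translocon, 2 were higher and 6 lower (median -0.06), shares to be read against 29.7% and 28.2% over all tested genes. The higher count was 1 without ES IP 3 or JL IP 1. The chaperone Hspa5 rose to 148, 148 and 110.1 from 59.1, 71.5 and 71.6 CPM (1.01 ± 0.18), while the signal peptidase subunit Spcs1 fell to 31.7, 18.8 and 18.5 from 57.6, 60.2 and 56.6 (-1.33 ± 0.23). Of 12 snoRNA host transcripts 4 were lower and 1 higher (0 without ES IP 1 or any 1 of the JL IPs). These counts too are to be read against 28.2% lower and 29.7% higher over all tested genes. Snhg11, which neurons express, was lower in the ES IPs than in both JL groups, at 38.7, 51.3 and 69.6 CPM against 117, 124 and 133 and 876, 1015 and 948 (-1.23 ± 0.21).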
